A study of Mus musculus with 31 samples.

Results

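R98S clone 13 and R98S clone 35 are sister lines of Ba/F3, a mouse lymphoid cell line that grows in interleukin-3, and the comparison asked how far clones of the same genotype differ from each other. Both lines carry a human RPL10 cDNA with the R98S mutation, delivered by a retrovirus, and an shRNA against the endogenous mouse Rpl10. Each line was grown from a single-cell colony, so every result below concerns 1 line against 1 other line and not the mutation itself. The libraries were chosen by their labels: numbers 1, 2 and 3 of each clone, 6 libraries of total mRNA and the 6 matched libraries of polysomal RNA, out of 31 libraries in the series. The remaining R98S line, clone 11, and the WT clones 28, 29 and 36, which carry the unmutated RPL10 cDNA with the same knockdown, serve only as reference levels. The labels give each clone with a replicate number but do not say that the replicates were separate cultures, so the p-values measure the spread between these samples, which may be technical.

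RPL10 belongs to the large subunit of the ribosome, joins it late in assembly and sits close to the catalytic centre. Polysomal RNA is the mRNA that sediments with several ribosomes on a sucrose gradient, so a matched total and polysomal library read the amount of each mRNA and the amount engaged by ribosomes. A line grown from 1 cell fixes whatever that cell carried, including silenced or active genes, chromosome changes and vector insertion sites, and isogenic clones can therefore differ at single genes that have no link to the introduced allele. Ba/F3 cells depend on the interleukin-3 receptor, and all 3 of its genes on the marker list (Il3ra, Csf2rb and Csf2rb2) were expressed in both clones. Of 14 B-lineage markers only Cd79a and Cd79b reached a mean of 10 normalized counts in either clone in total mRNA, and Pax5, Ighm and Rag2 were at 0 in every total library of both clones. Of 7 mast cell and basophil markers 5 reached that mean in both clones (Cpa3, Mcpt8, Ms4a2, Hdc and Gata2). Summed levels were 14343 to 21429 normalized counts in clone 13 and 17750 to 25582 in clone 35. Mcpt8 in clone 13 owed its mean mostly to number 2 (746, against 0 in number 3). The receptor genes Kit and Fcer1a did not reach it, and both were at 0 in every polysomal library labelled with either clone. Kit was also at 0 in every total library of clone 35. Of 7 erythroid and megakaryocyte markers, 6 reached that mean in clone 13 and 4 in clone 35 in total mRNA. In polysomal RNA 3 did so in each clone.

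Before the clones were compared, the libraries were checked against their labels with genes raised in only 1 R98S clone in total mRNA (at least 10 normalized counts in each of its libraries and at least 5 times the highest other R98S library plus 1). There were 2 such genes for clone 13 (Frem1 and Vav3), 7 for clone 35 (Bmpr1b, Cc2d2a, Chrnb4, Gabrd, Kcp, RP23-449N4.1 and RP24-444C13.13) and 6 for clone 11 (Bco2, Il18, Lama2, March1, Slc17a7 and Tex12). Of these, RP23-449N4.1 was also expressed in the other R98S clones (15.2 to 39.7 in clone 11 and 3.89 to 30.1 in clone 13). In polysomal RNA the 7 clone 35 genes summed to 524 and 482 normalized counts in clone 35 numbers 1 and 2, but to 11.6 in the library labelled clone 35 number 3. The 6 clone 11 genes summed to 389.6 in that library, against 1.46 and 2.41 in clone 35 numbers 1 and 2 and 836 and 483 in the libraries labelled clone 11. Distances were counted as genes more than 2-fold apart, over 8906 genes with a mean of at least 100. Polysomal number 3 stood apart in each clone. Clone 13 number 3 differed from clone 13 numbers 1 and 2 at 3432 and 3328 genes, and clone 11 number 3 from number 1 at 1198. The library labelled clone 35 number 3 differed from clone 35 numbers 1 and 2 at 2538 and 2227, so these distances do not bear on the label. Within number 3, only 32 genes differed between the libraries labelled clone 35 and clone 11, against 467 between those labelled clone 35 and clone 13. The library labelled polysomal clone 35 number 3 therefore goes against its label, and the counts and leading polysomal results are given with all numbers and with numbers 1 and 2 alone. Where 3 polysomal values are given for clone 35 below, the last is from that library.

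A second departure concerns number 2 of the total libraries. A set of 18 genes restricted to the WT clones, chosen without these libraries, summed to 8434.9 normalized counts in the total library labelled clone 13 number 2 and to 11335 in the one labelled clone 35 number 2. In the other 7 R98S total libraries the same sum was 135 to 1573 (1074 and 1573 in clone 35, 182 and 194 in clone 13, and 135, 1536 and 244 in clone 11 numbers 1, 2 and 3), and in the 8 WT total libraries it was 10247 to 42086. A further 29 genes restricted to R98S summed to 5605 and 7794.7 in the same pair of libraries, far above the 185 to 422 of the WT libraries. The other R98S libraries held 8878 to 16101. The 29 genes were chosen for high values in those other libraries, so the choice itself favoured a lower sum in the pair. In the 8 R98S polysomal libraries, which were not used to choose, the sum was 4604.5 to 11968. The matched polysomal number 2 libraries gave 105 and 506 for the WT genes, where the other R98S polysomal libraries held 97.3 to 481 and the WT polysomal libraries 5379 to 29108. The number 2 total libraries of clones 13 and 35 thus hold WT-type and R98S-type transcripts together. The counts and the named called genes of total mRNA are therefore given with all numbers and with numbers 1 and 3 alone. Clone 11 number 2, at 1536 for the WT genes, was also above clone 11 numbers 1 and 3. It was used to choose those genes, which favoured a low sum, so WT-type transcripts in it are not excluded. What brought WT-type transcripts into these libraries was not tested.

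**Figure D1:**
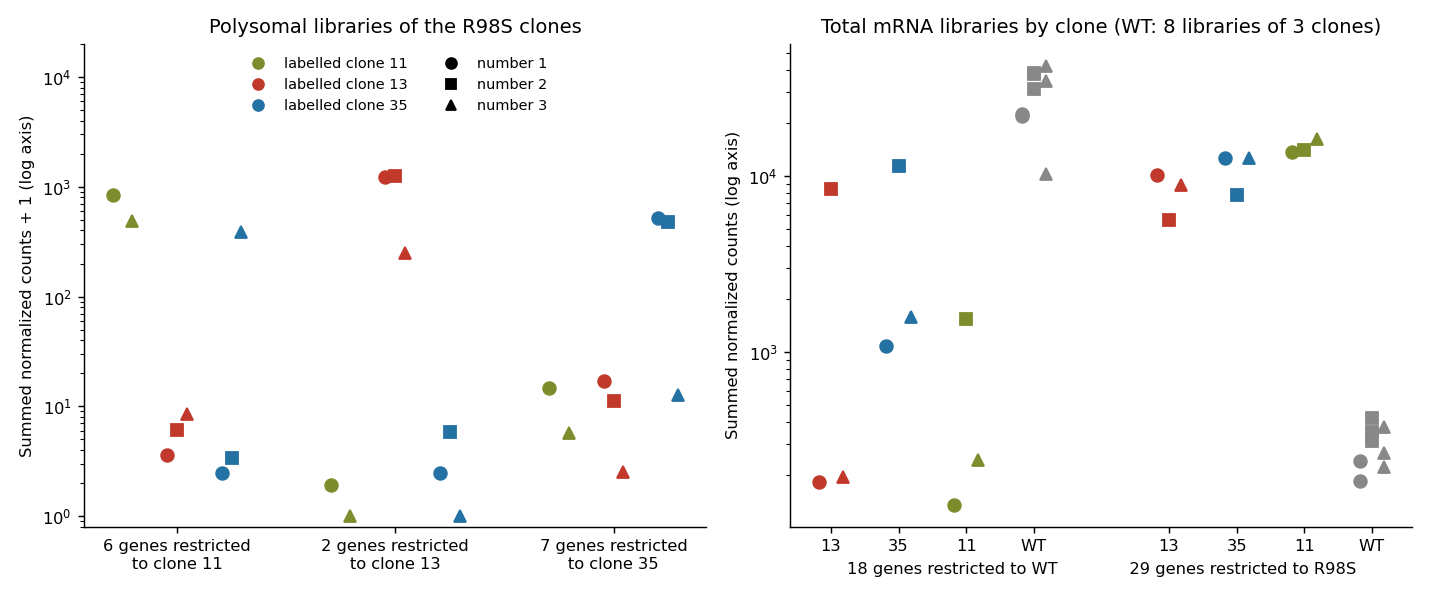
Summed normalized counts per library on log axes, of the genes raised in only 1 R98S clone, in polysomal RNA (left, value + 1), and of genes restricted to the WT or R98S genotype in total mRNA (right), with 1 point per library, colored by labelled clone and shaped by number. The blue triangle on the left (polysomal, labelled clone 35 number 3) is low for the clone 35 genes and high for the clone 11 genes, and the red and blue squares on the right (total, number 2) lie far above the other R98S libraries for the 18 WT genes.

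In total mRNA, 61 of 11129 tested genes passed an adjusted p of 0.1 (0.548%, limma on log2(value + 1) with the replicate number as a block, Benjamini-Hochberg), 30 higher in clone 13 (0.27%) and 31 lower (0.279%). Of the 61 genes, 56 differed more than 2-fold. The libraries of the clones did not overlap for 26 of the 30 higher and all 31 lower genes, against 16.5% of all tested genes, which restates the selection by the test. The median size was 3.04 on the log2 scale (1.18 to 9.56) for the higher genes and 2.14 (0.81 to 6.69) for the lower genes. Without the number 2 libraries, 343 genes were called (3.08%), 200 higher and 143 lower, and 59 of the 61 were among them, all but Chpt1 and Smad3. Without number 1, 1 gene was called, and without number 3 there were 160, so the count rests on which pairs are present. Before adjustment, 1860 genes had a p under 0.05, and chance alone gives 556.45. At the edge of the filter on low values, Hcar2 (a mean of 9.98 normalized counts over the 6 libraries) and Gm1821 (9.99) fell just outside and Katnal2 (10.006) and Dnm1 (10.008) just inside.

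The gene that separated the clones most was Frem1, which encodes an extracellular matrix protein of basement membranes. It lies on the minus strand at chr4:82897920-83052339 (GRCm38). Total mRNA held 1275, 1013 and 1779 normalized counts in clone 13 numbers 1, 2 and 3 and 1.19, 1.45 and 0 in clone 35. Every clone 13 library was thus high and every clone 35 library near 0, as were clone 11 (at most 1.12) and the WT clones (at most 1.71). The log2 difference was 9.56 (SE 0.43, limma adjusted p = 0.001), and without number 2 it was 9.99 (limma adjusted p = 0.00223). The 3 reads seen in clone 35 put the ratio of the clones at 1656, with a 95% counting interval of 567 to 8032. Polysomal RNA held 1173, 1189 and 231 in clone 13 and 0, 4.22 and 0 in clone 35, with a log2 difference of 8.63 with all numbers and 9.01 with numbers 1 and 2.

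The strongest gene in the opposite direction was Cc2d2a, which encodes a protein of the ciliary transition zone. It lies on the plus strand at chr5:43662346-43740972. Total mRNA held 0, 0.884 and 1.56 normalized counts in clone 13 and 276, 93.7 and 199 in clone 35, so that the groups were far apart in every pair. Clone 13 gave 3 reads in all, for a ratio of 216 with a 95% counting interval of 73.9 to 1047. The log2 difference was -6.69 (SE 0.55, limma adjusted p = 0.0205), and without number 2 it was -7.20 (limma adjusted p = 0.00985). Clone 11 and the WT libraries held at most 1.07. In polysomal RNA clone 35 numbers 1 and 2 held 95.1 and 57.9, and the library labelled number 3 held 0.

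The start regions of these 2 genes are shown because each gene is on in 1 clone and nearly off in the other, although the tables count whole genes and do not show which start is used (RefSeq, GRCm38.p6, from upstream to just past each annotated start, 5′ to 3′ on the gene's strand, with each CG pair in capitals).
Frem1, chr4:83021053-83021352, minus: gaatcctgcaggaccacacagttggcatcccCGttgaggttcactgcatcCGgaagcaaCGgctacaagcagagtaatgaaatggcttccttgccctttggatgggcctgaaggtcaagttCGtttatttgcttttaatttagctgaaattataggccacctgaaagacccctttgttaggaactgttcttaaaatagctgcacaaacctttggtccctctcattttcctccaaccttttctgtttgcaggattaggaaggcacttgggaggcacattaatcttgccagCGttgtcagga
Frem1, chr4:83052117-83052416, minus: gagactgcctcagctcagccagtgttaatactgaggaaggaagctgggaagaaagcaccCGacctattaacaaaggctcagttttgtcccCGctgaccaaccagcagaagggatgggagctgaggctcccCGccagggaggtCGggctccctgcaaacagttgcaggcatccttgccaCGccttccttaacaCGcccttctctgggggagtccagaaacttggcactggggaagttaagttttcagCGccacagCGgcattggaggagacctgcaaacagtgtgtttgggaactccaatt
Cc2d2a, chr5:43662129-43662428, plus: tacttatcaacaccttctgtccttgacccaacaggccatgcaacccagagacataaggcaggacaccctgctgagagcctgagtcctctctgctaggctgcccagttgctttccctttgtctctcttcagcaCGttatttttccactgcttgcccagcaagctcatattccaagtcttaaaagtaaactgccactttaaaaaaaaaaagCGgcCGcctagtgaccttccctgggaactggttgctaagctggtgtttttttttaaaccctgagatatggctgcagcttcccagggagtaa
CG pairs, the sites at which mammalian DNA is methylated, numbered 5 and 8 in the Frem1 regions and 3 in the Cc2d2a region. Across 32851 RefSeq promoters of the same length the median was 7, and 61.96%, 48.65% and 76.7% held at least as many CG pairs as these 3 regions. The Frem1 regions thus sit either side of the typical count and the Cc2d2a region below it. DNA methylation was not measured.

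Among the genes higher in clone 13, Atg10 stood above all other lines. Atg10, an E2-like enzyme of autophagosome formation on chromosome 13, held 554, 296 and 649 normalized counts in clone 13 and 129, 134 and 133 in clone 35, while clone 11 held 91.5, 137 and 109 and the WT libraries 96.6 to 154. Its log2 difference was 1.84 (SE 0.25, limma adjusted p = 0.0586), and without number 2 it was 2.19 (limma adjusted p = 0.0135), and in polysomal RNA it was 2.16 with all numbers and 1.89 with numbers 1 and 2. Clone 13 was thus the raised line for Atg10 in both fractions. Vav3, a guanine nucleotide exchange factor on chromosome 3, held 44.1, 26.5 and 92.6 in clone 13 and 0, 1.45 and 0 in clone 35, a log2 difference of 5.18, and 6.02 without number 2 (limma adjusted p = 0.0586 and 0.0168). Wfikkn2, a secreted protein with protease inhibitor domains on chromosome 11, held 269.6, 115 and 167 in clone 13 and 8.34, 5.81 and 2.76 in clone 35, a log2 difference of 4.81, and 5.17 without number 2 (limma adjusted p = 0.0205 and 0.00985). Vav3 and Wfikkn2 were chosen after their values were seen, and in total mRNA every clone 13 library was above every clone 35 library for both.

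For Rab38 it was clone 35 that stood apart. Rab38, a small GTPase of melanosome and lysosome-related organelle transport on chromosome 7, held 1118, 610.2 and 1184 normalized counts in clone 13 and 170.4, 209 and 153 in clone 35, with 1204, 1051 and 1350.4 in clone 11 and 315 to 629 in the WT libraries. Its log2 difference was 2.40 (SE 0.27, limma adjusted p = 0.039), and without number 2 it was 2.83 (limma adjusted p = 0.00697). The polysomal library labelled clone 35 number 3 held 2579, against 181 and 197 in numbers 1 and 2 and 1354 and 2515 in clone 11. Tbc1d8, a Rab GTPase-activating protein, held 213, 210.5 and 193 in clone 13 and 27.4, 64.7 and 37.2 in clone 35 (log2 difference 2.32, and 2.63 without number 2, limma adjusted p = 0.0431 and 0.023). Gls2, a mitochondrial glutaminase, held 333, 604 and 383 in clone 13 and 81, 248 and 120.0 in clone 35 (1.66, and 1.85 without number 2, limma adjusted p = 0.0394 and 0.0294). The clones overlapped for neither Rab38 nor Tbc1d8 nor Gls2. Ak1, a cytosolic adenylate kinase, held 424, 175 and 945 in clone 13 and 114, 77.8 and 114 in clone 35 (2.03, and 2.46 without number 2, limma adjusted p = 0.0987 and 0.0282), with the WT libraries spread over both clones at 57.1 to 588. Ak1 was called under 6 of 16 alternatives. The other members named by the rule were BC049352 (log2 difference 1.74, and 1.78 without number 2), Matn1, a cartilage matrix protein (1.75, and 2.10 without number 2), and Cntnap1, an axonal adhesion protein (1.76, and 2.09 without number 2). Over the 30 higher genes, the clone 11 mean lay nearer clone 13 for 16 and nearer clone 35 for 14, and the WT mean lay nearer clone 13 for 8 and nearer clone 35 for 22.

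Among the genes lower in clone 13, several were abundant and had their highest libraries in clone 35. C2cd5, which encodes a C2-domain protein of insulin-stimulated glucose transporter traffic on chromosome 6, held 1056, 1859.8 and 935 normalized counts in clone 13 and 6378, 5133 and 8508 in clone 35. Clone 11 held 1166, 1232 and 1281 and the WT libraries 1230.2 to 1954, so that clone 13 was at the level of the other lines. The log2 difference was -2.41 (SE 0.29, limma adjusted p = 0.0394), and without number 2 it was -2.89 (limma adjusted p = 0.00697). Polysomal RNA gave 750.0, 692 and 433 in clone 13 and 3832, 3867 and 518 in clone 35, the last of these being the library that goes against its label. Rnf145, an endoplasmic reticulum ubiquitin ligase of sterol metabolism, held 954, 1512 and 764 in clone 13 and 3792, 3874 and 6445 in clone 35 (-2.14, and -2.53 without number 2, limma adjusted p = 0.0586 and 0.0164), with 861, 1213 and 916 in clone 11. Kansl3, a subunit of the NSL histone acetyltransferase complex, held 1858, 1536 and 1417 in clone 13 and 5921, 3596 and 5934 in clone 35 (-1.65, and -1.87 without number 2, limma adjusted p = 0.0343 and 0.0124), with 1038 to 1435 in the WT libraries. For both genes every clone 35 library was above every other library named here. Syne1, a giant nuclear envelope protein, held 191, 303 and 186 in clone 13 and 1194, 796 and 1316 in clone 35 (-2.28, and -2.73 without number 2, limma adjusted p = 0.0394 and 0.00697).

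Other lower genes were on in clone 35 and nearly silent in clone 13. Bmpr1b, a BMP receptor, and Gabrd, a GABA-A receptor subunit, gave no read in clone 13 total mRNA. With 3 reads over the 3 libraries as the floor, Bmpr1b was at least 43.0-fold lower there and Gabrd at least 34.9-fold lower. Clone 35 held 14.3, 74.1 and 24.8 of Bmpr1b, so its bound leans on the number 2 library and would be lower without it. The log2 difference was -4.95 for Bmpr1b, and -4.31 without number 2 (limma adjusted p = 0.0617 and 0.0585). For Gabrd it was -4.88, and -5.18 without number 2 (limma adjusted p = 0.0492 and 0.0294). The transcript RP24-444C13.13 gave 2 reads in clone 13, for a ratio of 130.3 (95% counting interval 36.1 to 1076), and Chrnb4, a nicotinic acetylcholine receptor subunit, gave 1 read, for a ratio of 74.1 (13.3 to 2927). RP23-449N4.1 held 30.1, 15 and 3.89 in clone 13 and 486, 367 and 505 in clone 35 (log2 difference -5.06, and -5.33 without number 2). Gpr34, a receptor for lysophosphatidylserine, differed in that the WT lines expressed it. It held 0, 44.2 and 0.778 in clone 13 and 47.7, 898 and 224 in clone 35 (-5.63, and -6.29 without number 2, limma adjusted p = 0.0319 and 0.0124), and 82.3 to 763 in the WT libraries. Its highest value in each clone was in the number 2 library, which holds WT-type transcripts. Counted over all genes, 7 had at most 3 reads in each clone 35 total library with at least 10 normalized counts in each clone 13 library, and 5 had the converse.

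Alox5, the 5-lipoxygenase that starts leukotriene synthesis, held 545, 179.5 and 533 normalized counts in clone 13 and 2078, 1199.8 and 1743 in clone 35 (-2.12, and -1.82 without number 2, limma adjusted p = 0.0323 and 0.0124). Il6, a cytokine, held 389.9, 416 and 501 in clone 13 and 1049, 1164 and 784 in clone 35 (-1.19, and -1.04 without number 2, limma adjusted p = 0.098 and 0.0996), and in polysomal RNA the difference was -1.49 with all numbers and -1.56 with numbers 1 and 2, limma adjusted p = 0.0284 and 0.00214. Lat2, an adaptor of immunoreceptor signaling, held 212, 337 and 117 in clone 13 and 1127, 896 and 852 in clone 35 (-2.22, and -2.63 without number 2), with 36.3% of its annotated exonic bases shared with another gene, so its reads may be uncertain. Gpr141, an orphan receptor, held 47.1, 650.0 and 78.6 in clone 13 and 754, 1497 and 689 in clone 35 (-2.76, and -3.54 without number 2, limma adjusted p = 0.0987 and 0.00985). Gpr141 was called under 7 of 16 alternatives. The value of 650.0 stands in the number 2 library that holds WT-type transcripts, and the matched polysomal values of clone 13 were 28.3, 17.2 and 71.4. Mxd1, a MAX partner that opposes MYC (-1.06, and -0.996 without number 2), Plin3, a lipid droplet protein (-0.98, and -1.15 without number 2), Chpt1, a choline phosphotransferase (-1.23, and -1.12 without number 2), Hgfac, a protease that activates hepatocyte growth factor (-1.63, and -1.85 without number 2), and Tnnt1, a slow muscle troponin (-2.05, and -1.81 without number 2), completed the named lower genes. The call of Chpt1 is lost without number 2 (limma adjusted p = 0.0925 with all numbers and 0.102 without). Over the 31 lower genes, the clone 11 mean lay nearer clone 13 for 22 and nearer clone 35 for 9, and the WT mean lay nearer clone 13 for 23 and nearer clone 35 for 8.

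**Figure D2:**
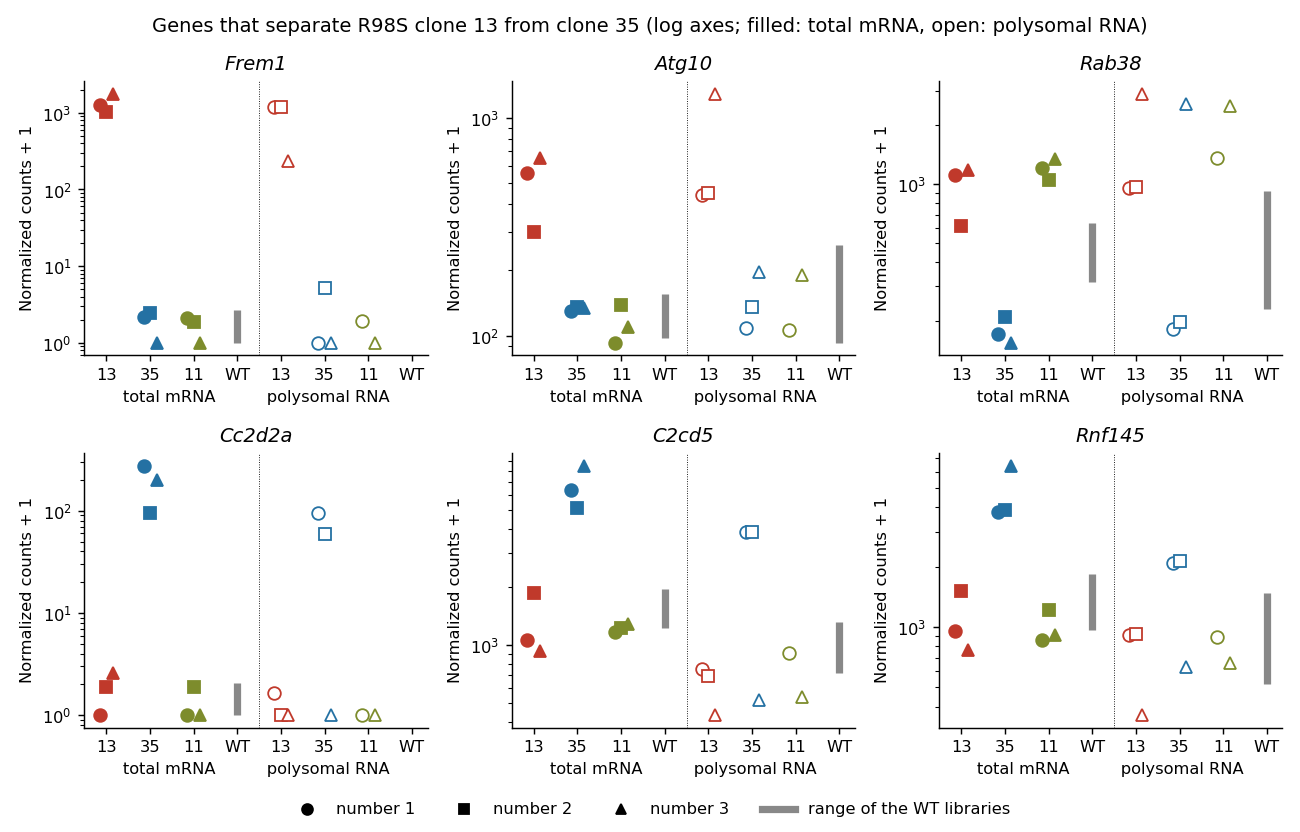
Normalized counts + 1 on log axes of 6 genes in each R98S library by clone, filled for total mRNA and open for polysomal RNA, with shapes for the replicate number and a gray bar for the range of the WT libraries. Clone 13 alone is raised for Frem1 and Atg10, clone 35 alone is raised for Cc2d2a, C2cd5 and Rnf145 and is low for Rab38, and the open blue triangle (polysomal, labelled clone 35 number 3) sits with clone 11 in each panel.

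Neighbours were read for the 23 genes named by largest difference at a mean of at least 100 that had a position in the annotation (GENCODE M21). Cc2d2a, Bmpr1b and Gabrd, named for few reads in 1 clone, are not among them. The nearest tested gene on either side gave 46 neighbours. The median absolute log2 difference was 0.26 over the neighbours and 0.21 over all tested genes. None of the 46 neighbours was called by limma, where 0.548% of all genes were, and 12 had an unadjusted p under 0.05, against 1860 of all 11129 genes. Of the 46 neighbours 31 had the same sign as the named gene beside them, and whether this share is unusual was not tested. The named genes had been selected for their size, so no comparison of size with them is made. The largest difference of a neighbour was 2.95 on the log2 scale, for Cask beside Gpr34, and Cask is among the 18 genes restricted to WT that appear in the number 2 libraries.

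In polysomal RNA, 375 of 10700 genes were called with all numbers (3.5%, limma, Benjamini-Hochberg adjusted p of 0.1), 197 higher and 178 lower. With numbers 1 and 2 alone 2438 were called (22.8%), 1224 higher and 1214 lower, and all 375 were among them. That fit has fewer libraries from which to estimate the spread, and numbers 1 and 2 were close to each other. Of 8906 genes with a mean of at least 100, 14 differed more than 2-fold between them in clone 13 and 170 in clone 35. The spread behind the 2438 calls may thus be largely technical. The libraries did not overlap for 12.9% of all polysomal genes with all 3 numbers. All 61 genes called in total mRNA had the same direction in the polysomal pairs of numbers 1 and 2, against 55.6% of all genes tested in both fractions. In the pair of number 3, which holds the library that goes against its label, 43 of 61 did so, against 64.7% of all genes. The 18 exceptions included Cc2d2a, Bmpr1b, Chrnb4, Gabrd, Kcp, Gpr34, Alox5, Tbc1d8, Matn1, Hgfac and Wfikkn2. Of the 56 genes tested in both fractions, 29 were also called in polysomal RNA with all numbers and 53 with numbers 1 and 2, all of them in the same direction. The fractions are labelled as matched and come from the same 2 lines, so this is not an independent repeat.

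**Figure D3:**
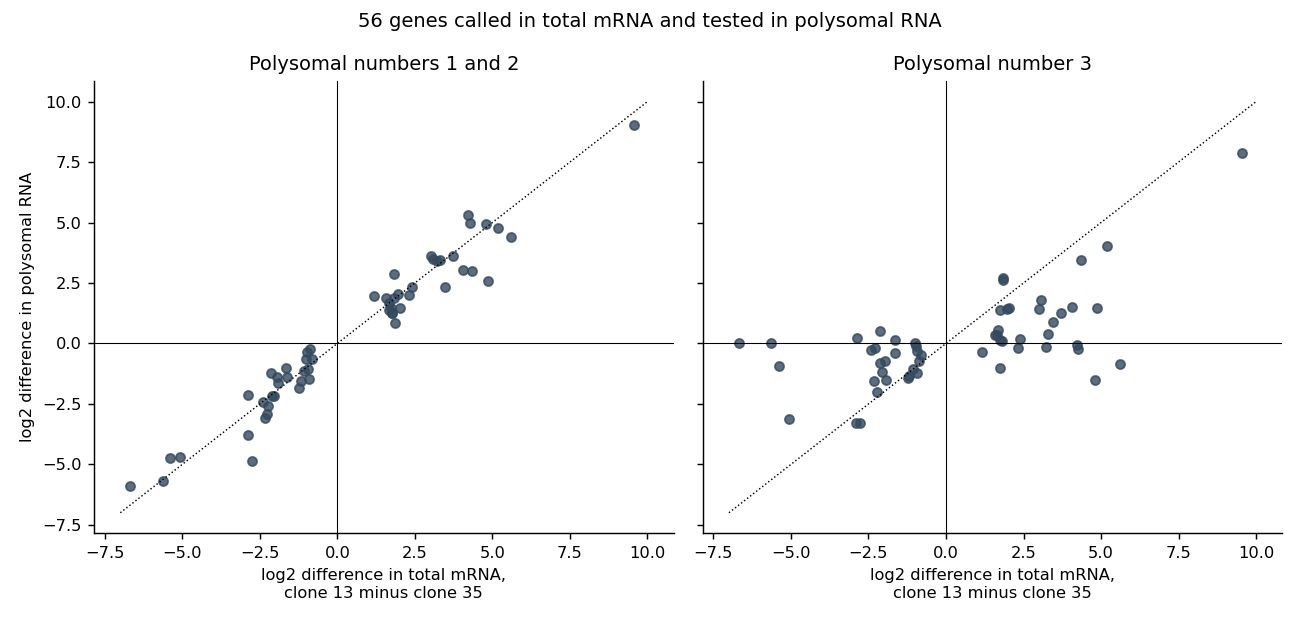
Log2 difference of clone 13 against clone 35 in polysomal RNA (vertical) against total mRNA (horizontal) for 56 genes called in total mRNA, 1 point per gene, with the dotted line marking equal values. With polysomal numbers 1 and 2 every point keeps its sign, and with number 3 alone points fall on or across the horizontal zero line.

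Mast cell and basophil genes leaned lower in clone 13. Of 22 listed genes 13 were tested, and all 13 had a negative difference in total mRNA with a median of -0.65, against -0.01 over all genes, although only Alox5 passed the test (7 had an unadjusted p under 0.05, or 53.8%, against 16.7% of all genes). Without number 2, 3 were called lower (Cma1, Itgb7 and Alox5; 1.28% of all genes were called lower) and the median was -0.75. In polysomal RNA 4 were called lower with all numbers (Mcpt8, Cma1, Itgb7 and Cyp11a1; background 1.66%) and 9 with numbers 1 and 2 (background 11.3%), with medians of -0.72 and -0.95. Cma1, which encodes the mast cell protease chymase, held 2216, 2392 and 1815 normalized counts in polysomal RNA of clone 13 and 20847, 16858 and 22923 in clone 35, where 22923 is from the library that goes against its label. Its log2 difference was -3.24 with all numbers and -3.02 with numbers 1 and 2, limma adjusted p = 0.00131 and 7.00e-05. In total mRNA it held 2595, 13523 and 303 in clone 13 and 17872, 24432 and 21997 in clone 35, a difference of -3.27 that did not pass with all numbers (adjusted p = 0.177) and of -4.48 that passed without number 2 (limma adjusted p = 0.0443). The clones did not overlap for Cma1 in either fraction. Clone 11 was at the clone 35 level or above with 18244, 56111 and 43536 in total mRNA. The WT libraries held 559 to 9830, below both of these clones, and clone 13 overlapped with them.

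Cma1 shares a cluster of serine protease genes on chromosome 14 with Mcpt8, a basophil protease, and Gzmb, which encodes granzyme B (chr14:55941451-56262260). Gzmb, named after its values were seen, held 187, 299.8 and 8.56 normalized counts in clone 13 and 2299, 1314 and 1267 in clone 35. Its log2 difference was -4.26 (limma adjusted p = 0.126) with all numbers and -5.33 without number 2 (limma adjusted p = 0.032). In polysomal RNA Gzmb held 126, 114 and 10.6 in clone 13 and 1921, 1566 and 9761 in clone 35, the last being the library that goes against its label. With numbers 1 and 2 the log2 difference was -3.84 (limma adjusted p = 1.81e-05). Mcpt8 held 13.5, 16.2 and 22.8 in polysomal RNA of clone 13 and 55.6, 47.0 and 429 in clone 35, the last being the library that goes against its label. Itgb7, an integrin subunit of mast cells and gut-homing lymphocytes, held 359, 287 and 85.1 in clone 13 and 595, 541 and 123 in clone 35 (-0.72 with all numbers and -0.82 with numbers 1 and 2, limma adjusted p = 0.097 and 0.0147). Differences varied within the list. Fcer1g, the signaling chain of the IgE receptor, had a total mRNA difference of -0.23 (adjusted p = 0.46).

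**Figure D4:**
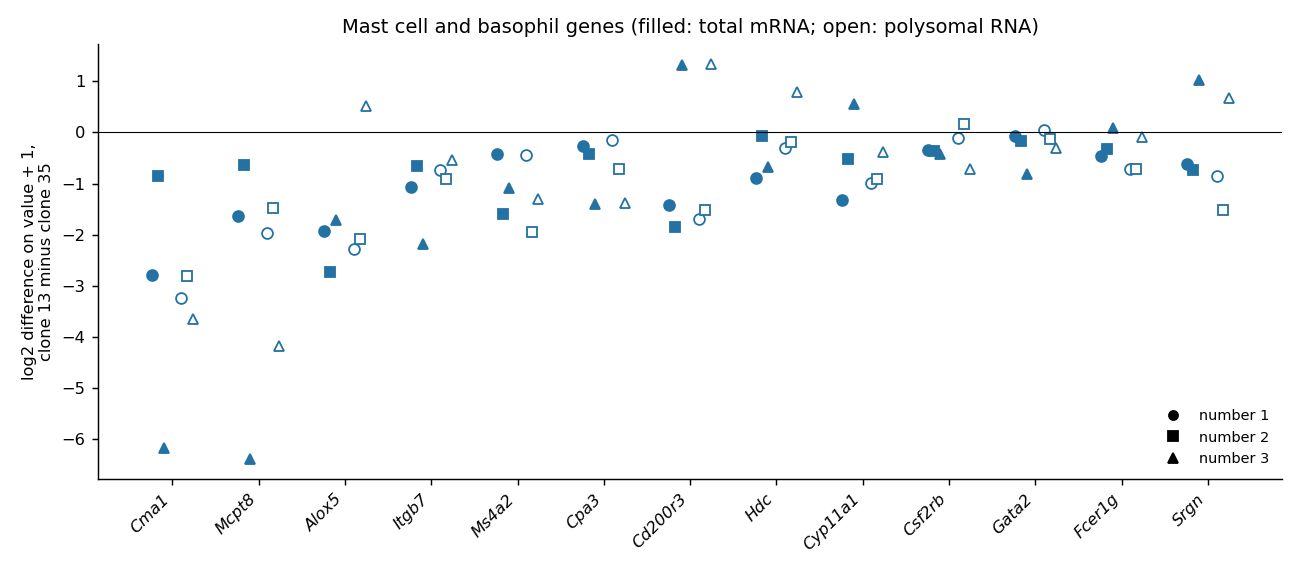
Log2 difference of clone 13 against clone 35 on value + 1 for the 13 tested mast cell and basophil genes, 1 point per numbered pair, filled for total mRNA and open for polysomal RNA. Cma1, Mcpt8 and Itgb7 are below 0 in all 6 pairs, and Cd200r3, Cyp11a1, Srgn and Fcer1g have at least 1 pair above 0.

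Among the immediate early genes, the transcription factors and phosphatases induced first by growth factor signals, 7 of 28 tested were called lower in polysomal RNA of clone 13 with all numbers (Fos, Junb, Egr2, Ier2, Zfp36, Klf6 and Maff, background 1.66%) and 0 higher, with a median of -0.39 against -0.01 over all genes. With numbers 1 and 2, 14 were called lower and 1 higher (background 11.3% and 11.4%). Zfp36, which encodes an RNA-binding protein that destabilizes AU-rich mRNAs, held 311, 309.5 and 407 normalized counts in polysomal RNA of clone 13 and 816, 688 and 872 in clone 35 (-1.21 with all numbers and -1.27 with numbers 1 and 2, limma adjusted p = 0.0498 and 0.00314). Egr2, a zinc finger transcription factor, held 208, 193 and 199 in clone 13 and 437, 463 and 302 in clone 35 (-0.98 with all numbers and -1.16 with numbers 1 and 2, limma adjusted p = 0.0758 and 0.00544). The libraries did not overlap for either gene, where 872 and 302 are from the library that goes against its label. In total mRNA 0 of 29 tested genes were called by limma or edgeR with all numbers and 2 by DESeq2 (6.9%, against 5.16% of all genes), 4 had an unadjusted p under 0.05 (13.8%, against 16.7%), and the median was -0.42. Without number 2, 2 were called higher (Fosl2 and Id1) and 1 lower (Id2), against 1.8% and 1.28% of all genes, with a median of -0.34. Fos held 14, 22.1 and 165 in total mRNA of clone 13 and 1682, 167 and 16.5 in clone 35, so its replicates spread over more than the difference between the clones.

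Genes of the ATF4 response, which is induced by amino acid shortage and endoplasmic reticulum stress, leaned higher in total mRNA of clone 13. Of 33 tested genes 28 had a positive difference with a median of 0.30, and 0 were called by limma or edgeR with all numbers, 6 by DESeq2 (18.2%, against 5.16% of all genes), and 11 had an unadjusted p under 0.05 (33.3%, against 16.7%). Without number 2, 7 were called higher (Trib3, Sesn2, Slc7a11, Slc1a4, Ddit4, Mthfd2 and Cars; background 1.8%). Slc7a11, the cystine transporter, had a log2 difference of 2.01 without number 2 (limma adjusted p = 0.0287) and of -0.44 in polysomal numbers 1 and 2 (adjusted p = 0.288). In polysomal RNA calls went both ways, where Ddit4, an inhibitor of mTORC1, was called higher and Ppp1r15a, a phosphatase subunit of eIF2α, was called lower (background 1.84% and 1.66%), and numbers 1 and 2 gave 6 higher and 5 lower (background 11.4% and 11.3%). There 21 of 32 tested genes had a positive difference with all numbers (median 0.19) and 17 with numbers 1 and 2 (median 0.07). Among 23 targets of p53, limma and edgeR called 0 in total mRNA with all numbers and DESeq2 4 (17.4%, against 5.16% of all genes). An unadjusted p under 0.05 was found for 5 (21.7%, against 16.7%), the median was 0.19, and limma called 3 higher without number 2 (Ccng1, Sesn2 and Zmat3; background 1.8%). In polysomal RNA 3 of 22 were called higher (Trp53 itself, Ccng1 and Phlda3; background 1.84%) and 0 lower, and numbers 1 and 2 gave 8 higher and 1 lower (background 11.4% and 11.3%). Trp53 and Ccng1 lie on chromosome 11 and Phlda3 on chromosome 1. Of all genes on chromosomes 1, 2, 11 and 14, 5.57% were called higher in polysomal RNA, against 0.597% elsewhere. Trp53 held 4568, 4776 and 4095 normalized counts in polysomal RNA of clone 13 and 2665, 2083 and 2596 in clone 35 (0.88 with all numbers and 0.99 with numbers 1 and 2, limma adjusted p = 0.0749 and 0.0109), without overlap. The value of 2596 is from the library that goes against its label.

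Rpl10 itself, measured as the mouse gene, held 1138, 1964 and 901 normalized counts in total mRNA of clone 13 and 2984, 1154 and 1024 in clone 35, with overlapping libraries (log2 difference -0.27, and -0.79 without number 2, limma adjusted p = 0.74 and 0.206). The 5 serine and glycine synthesis enzymes, which the study examined between genotypes, gave 0 calls by limma or edgeR and 1 by DESeq2 in total mRNA (20%, against 5.16% of all genes). An unadjusted p under 0.05 was found for 1 (20%, against 16.7%), and all 5 differences were positive with a median of 0.31. Psph, the phosphatase of the last step to serine, held 416, 136 and 402 in clone 13 and 452, 123 and 215 in clone 35 (0.31, and 0.39 without number 2, limma adjusted p = 0.526 and 0.464), whereas the WT libraries held 52.4 to 84.3. Psph in both R98S clones thus lay above the WT range with no call between them. Shmt1, the cytosolic serine hydroxymethyltransferase, was called higher in polysomal RNA (background 1.84%), with 1742, 1679 and 1985 in clone 13 and 977, 961 and 1031 in clone 35 (0.86 with all numbers and 0.82 with numbers 1 and 2, limma adjusted p = 0.0598 and 0.0115). Shmt1 lies on chromosome 11, among the 4 chromosomes where 5.57% of genes were called higher. Of the factors that mature the large subunit around RPL10, 0 of 26 were called by limma or edgeR in total mRNA (2 by DESeq2, or 7.69% against 5.16% of all genes, and 4 with an unadjusted p under 0.05, or 15.4% against 16.7%) and 3 were called higher in polysomal RNA (background 1.84%; 5 with numbers 1 and 2, background 11.4%, and 0 lower in either). These were Eif6, which keeps an immature large subunit from joining the small one, with a log2 difference of 0.71, and Pes1 and Wdr12 of the PeBoW complex, with 0.84 and 0.71. They lie on chromosomes 2, 11 and 1. These are among the 4 chromosomes with the joint share of 5.57%.

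In total mRNA with all numbers, none of the 38 tested genes of interleukin-3, JAK and STAT signaling, the 15 of the Bcl2 family, the 33 hematopoietic transcription factors, the 52 of DNA replication and cell cycle, the 25 of cholesterol synthesis, the 29 of the interferon response, the 32 of hypoxia and glycolysis, the 29 integrins and adhesion receptors, the 10 imprinted genes, or the 5 B-lineage, 5 T-lineage and 7 myeloid markers was called by limma or edgeR. Of the 273 distinct genes on these lists 42 had an unadjusted p under 0.05 (15.4%, against 16.7% of all genes), and DESeq2 called 17 (6.23%, against 5.16%). Without number 2 limma called 10 of the 273 (3.66%, against 3.08% of all genes), with Bcl2l1, Pmvk, Dhx58, Itgb4 and F11r higher and Ikzf1, Tal1, Ndrg1, Cdkn2c and Itgb7 lower. In polysomal RNA 267 of these genes were tested, and limma called 13 with all numbers (4.87%, against 3.5%), 8 higher and 5 lower, and 66 with numbers 1 and 2 (24.7%, against 22.8%), 28 higher and 38 lower. By list, limma called 8 higher and 5 lower of 52 cell cycle genes and 7 and 4 of 28 integrins and adhesion receptors. It called 6 and 4 of 30 interferon response genes and 3 and 6 of 38 genes of interleukin-3, JAK and STAT signaling. Of 32 hypoxia and glycolysis genes it called 1 and 8. Among all genes 11.4% were called higher and 11.3% lower. These lists were picked by their number of calls and differ in length, so the counts do not rank them. Of 22 antigen presentation genes limma called 1 in total mRNA (against 0.548% of all genes), edgeR 0 and DESeq2 2. The gene called by limma was Nlrc5, the transactivator of MHC class I genes, which was higher (154, 357 and 223 against 65.5, 174 and 91.7, 1.18, and 1.25 without number 2, limma adjusted p = 0.0925 and 0.0874). Its edgeR adjusted p was 0.102, and it was called under 7 of 16 alternatives, with adjusted p from 0.00185 to 0.725. Without number 2 H2-T23 was also called, lower. In polysomal RNA Psmb10, an immunoproteasome subunit, was the only one of 22 tested members called with all numbers, and it was higher (background 1.84%). Numbers 1 and 2 gave 2 higher and 2 lower (background 11.4% and 11.3%). Among 12 erythroid and megakaryocyte markers limma and edgeR called 0 in total mRNA and DESeq2 2 (16.7%, against 5.16% of all genes), and 4 had an unadjusted p under 0.05 (33.3%, against 16.7%). Ikzf1, a lymphoid transcription factor, held 0, 22.1 and 0.778 in clone 13 and 26.2, 63.2 and 20 in clone 35 in total mRNA. It was not called with all numbers (limma adjusted p = 0.147) and was called without number 2 (-4.16, limma adjusted p = 0.0579). Ikzf1 was called under 5 of 15 alternatives. The total library labelled clone 13 number 2 also held 327 counts of Flot2, 271 of Pf4, 186 of Aldh1a1 and 389 of S100a6. The WT total libraries held at most 1.71 of Flot2, 5.14 of Pf4 and 0 of Aldh1a1, but up to 2190 of S100a6. Flot2, Pf4 and Aldh1a1 are thus not WT-type transcripts in these data, and their source was not tested.

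Whole chromosomes differed between the clones by small amounts. In total mRNA the median log2 difference was 0.20 over 588 genes of chromosome 1, 0.21 over 860 of chromosome 2, 0.22 over 924 of chromosome 11 and 0.23 over 378 of chromosome 14. On these chromosomes 79.3%, 81.3%, 77.8% and 79.1% of genes were higher in clone 13, and each chromosome had a positive median in each numbered pair. Number 2 gave the smallest medians there (0.08, 0.15, 0.16 and 0.12), against 0.26 to 0.32 in numbers 1 and 3. Chromosome 8 had a median of 0.05, chromosome 3 of 0.02 and the others were between -0.18 and -0.05. Within chromosome 8, the 291 genes with starts up to 80980733 had a median of 0.18 (0.26, 0.13 and 0.17 in numbers 1, 2 and 3) and the other 309 one of -0.07 (-0.10, 0.05 and -0.17). The split point was chosen in these data as the one with the largest difference between the medians, so that difference is a description only.

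In polysomal RNA the medians of numbers 1 and 2 were 0.23 and 0.22 on chromosome 1, 0.28 and 0.31 on chromosome 2, 0.28 and 0.36 on chromosome 11 and 0.27 and 0.26 on chromosome 14. In number 3 the medians of chromosomes 2 and 11 were both 0.34, and chromosomes 1 and 14, on which clone 11 is raised too, had -0.07 and -0.03 with the library that goes against its label. Levels in single libraries, taken relative to the mean of all total libraries and to the middle chromosome of the same library, showed which line was raised. Chromosome 2 lay between 0.09 and 0.33 and chromosome 11 between 0.10 and 0.35 in clone 13, with clones 35 and 11 and the WT lines near 0. Chromosome 1 lay between 0.20 and 0.26 in clone 11 and between 0.00 and 0.28 in clone 13, but between -0.16 and -0.08 in clone 35 and -0.21 and -0.01 in the WT lines. Chromosome 14 followed chromosome 1, with 0.20 to 0.28 in clone 11, 0.03 to 0.29 in clone 13 and -0.13 to -0.10 in clone 35. Clone 13 was thus alone in its raised chromosomes 2 and 11 and shared raised chromosomes 1 and 14 with clone 11. DNA copy number was not measured.

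**Figure D5:**
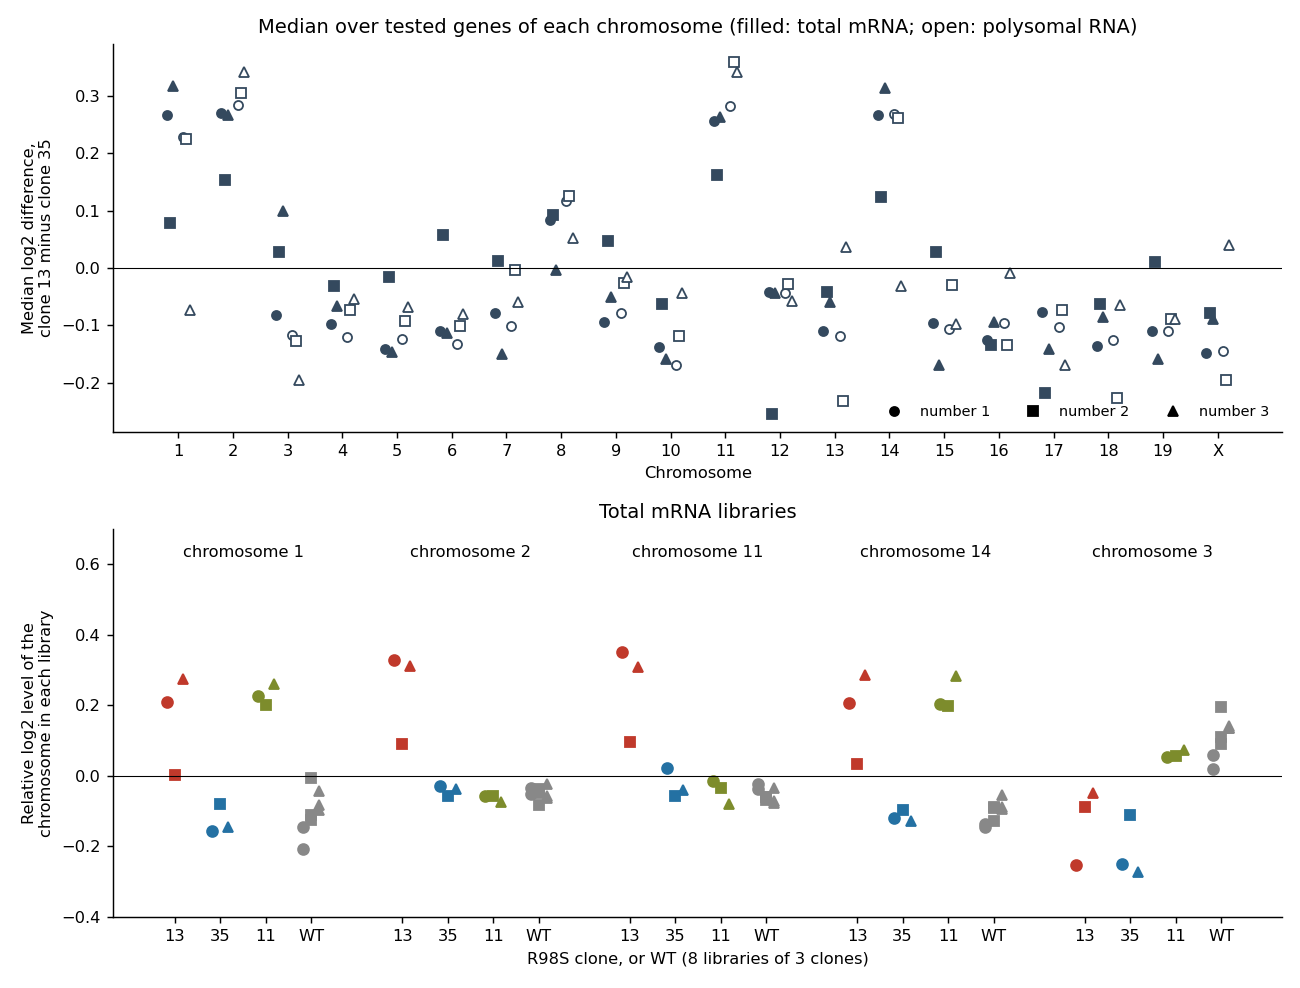
Top: median log2 difference of clone 13 against clone 35 over the tested genes of each chromosome, 1 point per numbered pair, filled for total mRNA and open for polysomal RNA. Bottom: relative log2 level of 5 chromosomes in each total mRNA library by line, where only clone 13 is raised on chromosomes 2 and 11, and clones 13 and 11 are raised on chromosomes 1 and 14. On chromosome 3 every library of clones 13 and 35 is below 0, with clone 13 at -0.25, -0.09 and -0.05 in numbers 1, 2 and 3 and clone 35 between -0.27 and -0.11.

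Chromosomes 1, 2, 11 and 14 held 26.0% of the tested genes with a position. They held 15 of 30 genes called higher in total mRNA (50%) and 3 of 28 called lower. Without number 2 they held 122 of 195 higher (62.6%) and 14 of 134 lower (10.4%). In polysomal RNA they held 148 of 193 higher (76.7%) and 15 of 170 lower (8.82%), and with numbers 1 and 2 775 of 1185 higher (65.4%) and 63 of 1150 lower (5.48%). The 4 chromosomes were singled out by their medians in the same libraries, so these shares are a description with no test. The 15 genes called higher there in total mRNA had a median difference of 3.21 on the log2 scale and were all over 2-fold, against a median of 1.85 for those called higher elsewhere, while the chromosome medians were 0.20 to 0.23. The 148 of polysomal RNA had a median of 0.80, and 33 of them were over 2-fold. Among runs of 30 neighbouring genes the highest median was 0.52 at chr11:82764345-84819515, where the numbered pairs gave 0.48, 0.26 and 0.65 in total mRNA and 0.50, 0.63 and 0.70 in polysomal RNA. The lowest was -0.34 at chr17:47611582-56263610, where the numbered pairs gave -0.09, -0.26 and -0.30 in total mRNA and -0.01, -0.05 and -0.37 in polysomal RNA. It was thus near 0 in polysomal numbers 1 and 2. The protease genes of chromosome 14 ran against their chromosome, since Cma1 and Gzmb were lower in clone 13 where the chromosome as a whole was higher.

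Translation efficiency, the polysomal level of a gene relative to its total mRNA in the library matched by label, was tested as the difference of these log2 values between the clones. None of 10620 genes was called by limma (0.0%), 512 had an unadjusted p under 0.05, and edgeR on the recovered reads gave 0 calls with 487 under 0.05. Chance alone gives 531 under 0.05. Without number 3 limma gave 0 calls with 1131 under 0.05, above that number, and without number 2 it gave 0 with 419. Without number 1, which keeps both departures, it gave 1 call with 326 under 0.05. The call was S100a6, lower in clone 13 by 8.55 on the log2 scale (limma adjusted p = 0.0624). Number 2 holds the total libraries with WT-type transcripts and number 3 the polysomal library that goes against its label, so leaving out either keeps 1 of the departures and only number 1 is free of both. Frem1 had an efficiency difference of -0.93 on the log2 scale (limma adjusted p = 0.89) and C2cd5 one of 0.72 (0.91).

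The same test was run on other pairs of lines. Clones 11 and 13 differed at 151 of 11089 genes in total mRNA (1.36%), clones 11 and 35 at 739 of 11078 (6.67%) and WT clones 28 and 29 at 3 of 10984 (0.0273%). These pairs share libraries with the comparison of clones 13 and 35 or have their own replicate spread, and whether the counts differ was not tested. Depth was uneven between the clones in some pairs. Numbers 1, 2 and 3 of total mRNA had 15655883, 17535532 and 19874891 reads in clone 13 and 13466721, 21030712 and 22059792 in clone 35. The polysomal libraries had 19267490, 12406573 and 12148603 reads in clone 13 and 8831180, 20754046 and 13074288 in clone 35, and the part of depth in the results was not tested.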

How the data were processed

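Total mRNA and polysomal RNA of Ba/F3 clones were sequenced by the authors from TruSeq stranded mRNA libraries. Polysomal RNA came from pooled gradient fractions. The authors removed the first base of each read, discarded reads matching rRNA and tRNA (Bowtie2), aligned the rest to the mouse genome with TopHat2 2.0.11, kept primary alignments above a mapping quality limit and counted reads on exons. The submitters' processing notes also list HTSeq, SAMtools and DESeq2. Strand setting and annotation are not given in the sources used here. The deposited values are a normalized signal, read counts divided by a DESeq2 size factor per library within each table, and multiplying back gave whole reads for 100% of values.

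Genes with a mean of at least 10 over the 6 libraries were tested on log2(value + 1) with limma 3.58.1 (R 4.3.3), with terms for clone and replicate number, a mean-dependent prior, Benjamini-Hochberg adjustment and a threshold of 0.1, two-sided, positive where clone 13 was higher. The values being normalized, a count model was not the main test. The recovered reads were tested with edgeR 4.0.16 and DESeq2 1.42.0 as alternatives. Scripts were tested on simulated data. Replicate numbers pair the clones: same-numbered libraries deviated from their clone means with correlations of 0.51, 0.50 and 0.10 in total mRNA and 0.63, 0.53 and 0.78 in polysomal RNA. Libraries of different numbers gave -0.60 to 0.07 in total mRNA and -0.76 to 0.68 in polysomal RNA, where numbers 1 and 2 also correlated with each other (0.68 and 0.61), so number 3 of total mRNA is barely paired and polysomal numbers 1 and 2 are not told apart. An exact permutation test of 3 against 3 libraries cannot go below p = 0.1, so none is given.

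Genes were named by rule: up to 12 called per direction with the largest difference at a mean of at least 100, the same sign in every pair of both fractions and no overlap (also with polysomal numbers 1 and 2 only, chosen after seeing the data). Added to these were Rpl10, the serine and glycine genes, the leading members of each of 20 gene lists and genes with at most 3 reads per library in 1 clone. The members and lists were chosen with earlier results of these data known. Symbols were matched to GENCODE M21 (36776 of 41255). Depth was 8831180 to 22059792 reads per library of the clones, and counting intervals cover counting error only, since reads without molecular identifiers are not independent molecules. Alternatives were other scalings, filters, pseudocounts, fits without the replicate block, fits with more libraries, and each replicate number left out.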

Additional observations from a re-analysis of the deposited data

How the results depend on the processing

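Pairing the libraries by replicate number (the block) gave 61 calls for total mRNA and 375 for polysomal RNA. Without the replicate block there were 34 and 1. In total mRNA the count was 20 at a mean of at least 50, 40 with the mean taken over all libraries, 283 with no filter on low values, 20 with no variance trend, 210 with all libraries of the table, 470 with all R98S libraries, 574 with DESeq2 on the recovered reads, and 1 to 343 when a replicate number was left out. In polysomal RNA it was 868 with no filter, 52 with no variance trend, 585 with quantile normalization, 688 with DESeq2, and 130 to 2438 when a number was left out. Translation efficiency gave 0 to 1 calls when a number was left out. TMM scaling, edgeR and the other pseudocounts (0.1 and 5) kept both counts within 1.5 times the values above, with 46 to 61 in total mRNA and 259 to 388 in polysomal RNA. The cause of these changes was not tested. Leaving out a number turned the direction of some named genes in total mRNA, with log2 differences from -0.79 to 0.29 for Rpl10, -0.077 to 0.58 for Phgdh, -0.030 to 0.30 for Psat1, -0.81 to 3.65 for Pf4, -0.63 to 2.94 for Aldh1a1, -0.68 to 0.20 for Srgn (0.14 without number 1), -0.92 to 0.018 for Cyp11a1, -4.83 to 0.19 for Fos and -3.79 to 0.18 for Egr2. In polysomal RNA they were -0.047 to 0.097 for Psat1 (-0.037 without number 1), -0.091 to 0.35 for Dhcr7, -2.61 to 1.23 for S100a6, -0.064 to 0.50 for Id1 and -0.44 to 0.35 for Slc7a11. DESeq2 turned Pf4 in total mRNA (-0.027) and S100a6 in polysomal RNA (0.68), TMM scaling and edgeR turned Psat1 in polysomal RNA (both -0.016), and a fit of all polysomal libraries except the one labelled clone 35 number 3, chosen after seeing the data, turned S100a6 (0.061) and Slc7a11 (-0.087). None of these genes was called with all numbers in the fraction where its direction turned.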
